A study of Homo sapiens with 9 samples.

Results

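The actins and the contractile and SRF-type genes described here are 10 genes, taken with every probe annotated to them in the deposited value table. They are ACTA2, ACTB, ACTG1, ACTG2, TAGLN, TAGLN2, MYL9, CNN1, CNN2 and SRF, which carried 18 of the 48803 probes, among 18665 named genes in all. ACTA2 was selected because its signal rose after GANP depletion and fell after NXF1 depletion, so its values are given as a description with no test. Cytoplasmic RNA of HCT116 cells, an established human colorectal carcinoma line, was released with digitonin 72 h after transfection and measured on 9 Illumina HumanWG-6 v3 arrays. The arrays form 3 groups of 3, transfected with GANP siRNA, with NXF1 siRNA or with the control siRNA. Each of 3 independent depletion experiments supplied 1 array per group. Each gene was targeted with a single siRNA sequence, and the control siRNA matched the GANP siRNA apart from a pair of bases. GANP and NXF1 act in the nuclear export of mRNA, and the comparison asks which cytoplasmic transcripts change when either is lost.

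All values below are log2 signals after background correction and quantile normalization of the deposited signals, and differences are log2 differences between group means. Equal amounts of RNA were amplified for each array, so a change is relative to the other cytoplasmic transcripts. A cytoplasmic level cannot tell apart synthesis, export and decay, and in bulk RNA fewer cells of a type and less RNA per cell cannot be told apart. A gene was called when its adjusted p (limma, Benjamini-Hochberg over 13118 genes) was under 0.05 and its log2 difference was over 0.25 or under -0.25. MCM3AP, the gene that encodes GANP, was at 9.59, 9.80 and 9.88 in the control siRNA arrays of experiments 1, 2 and 3, at 8.59, 8.80 and 8.76 with GANP siRNA, and at 9.65, 9.70 and 9.82 with NXF1 siRNA. It fell by 1.04 with GANP siRNA (SE 0.10, adjusted p = 7.02e-05), and NXF1 siRNA gave -0.03 (adjusted p = 0.849). No probe carried the symbol NXF1, so that depletion was not checked here.

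Actin polymerises from monomers into filaments, and myosin II slides those filaments to produce contraction. ACTB and ACTG1 encode the cytoplasmic actins of nearly every cell, while ACTA2 and ACTG2 encode the actins typical of vascular and enteric smooth muscle. TAGLN (transgelin, also called SM22) and CNN1 (calponin) bind actin filaments in smooth muscle, TAGLN2 and CNN2 are their widely expressed relatives, and MYL9 encodes a regulatory light chain of myosin II. SRF, serum response factor, binds the CArG box, a pair of cytosines followed by a run of A or T and a pair of guanines. It acts with MRTF cofactors, which are held by free actin monomers, on cytoskeletal and smooth muscle genes, and with the ternary complex factors ELK1, ELK3 and ELK4 on immediate early genes such as FOS and EGR1.

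The stretches that hold CArG boxes are shown because the 10 genes are grouped by their link to SRF. They come from RefSeq promoter windows (GRCh38.p14), each of 300 bases from 250 before to 50 after an annotated gene start. Windows were given for 7 of the 10 genes, 11 in all, and none was used for ACTB, TAGLN or MYL9. Capitals mark the box, and only bases before the start are printed. For ACTA2 the capitals mark a pair of boxes that each differ from the CArG pattern at 1 base.
ACTA2 second start, chr10:88952774-88953023, minus strand: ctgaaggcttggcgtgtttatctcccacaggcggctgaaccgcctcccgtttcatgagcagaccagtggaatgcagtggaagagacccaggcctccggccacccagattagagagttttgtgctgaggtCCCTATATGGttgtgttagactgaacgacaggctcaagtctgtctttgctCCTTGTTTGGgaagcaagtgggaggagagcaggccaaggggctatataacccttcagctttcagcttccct
ACTG1, chr17:81512859-81512918, minus strand: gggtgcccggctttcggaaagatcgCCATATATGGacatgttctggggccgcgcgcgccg
ACTG2, chr2:73892873-73892969, plus strand: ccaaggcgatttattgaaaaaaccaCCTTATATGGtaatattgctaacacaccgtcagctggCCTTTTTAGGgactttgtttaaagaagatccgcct
CNN2, chr19:1026494-1026553, plus strand: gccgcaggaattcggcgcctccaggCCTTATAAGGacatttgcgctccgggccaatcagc
SRF first start, chr6:43171214-43171268, plus strand: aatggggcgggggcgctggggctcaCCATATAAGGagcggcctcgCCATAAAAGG

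An exact CArG box, which reads alike on both strands and was searched without regard to other motifs, occurred in 4 of the 7 genes with a window (ACTG1, ACTG2, CNN2 and SRF). The same search found one in 1.29% of 35116 promoter windows and in 1.6% of 27305 genes. Allowing 1 mismatch added ACTA2 and gave 5 of 7 genes, beside 22.3% of all genes and 18.9% of all windows. The ACTA2 matches began 121 and 71 bases before the start, the ACTG1 box 94 bases, the ACTG2 boxes 110 and 73 bases and the CNN2 box 89 bases. In SRF the boxes began 30 and 10 bases before the start. The 3 TAGLN2 windows, the CNN1 window, the first ACTA2 window and the second SRF window held no such match. Since the genes were grouped as SRF-type genes, the frequency of the box is a description, and a match is not a measured binding site.

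**Figure D1:**
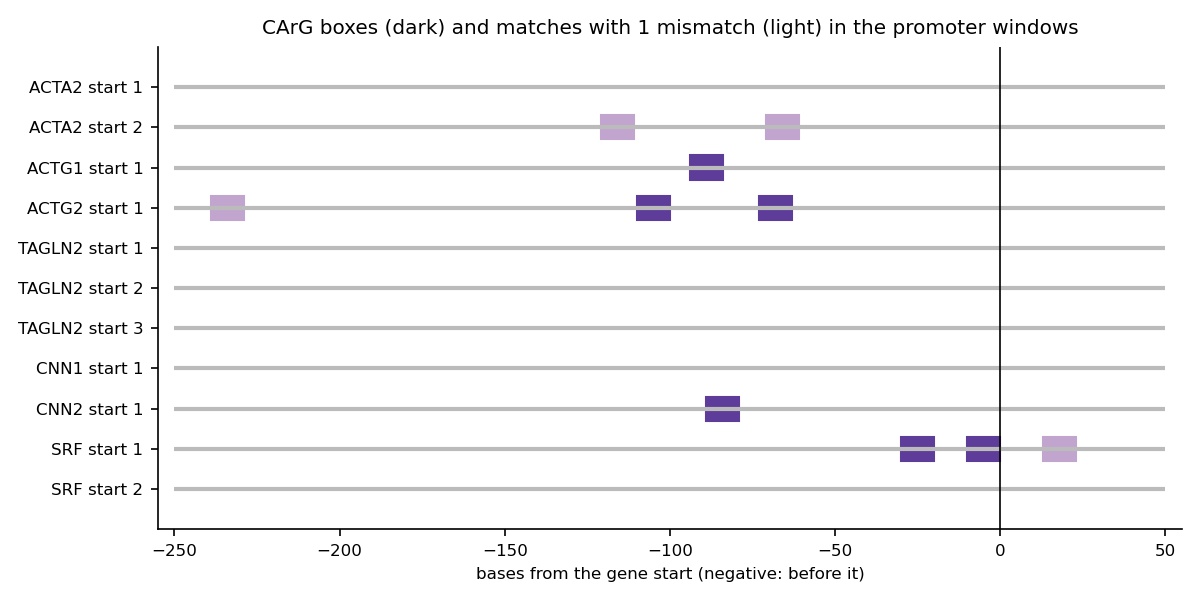
CArG boxes in the 11 promoter windows, with the distance from the gene start in bases on the x axis and 1 row per window. Dark blocks are exact boxes and light blocks differ at 1 base, and the exact boxes lie in ACTG1, ACTG2, CNN2 and SRF.

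ACTA2 was high with GANP siRNA and low with NXF1 siRNA in every experiment. Its single probe read 10.46, 10.30 and 10.22 in the control arrays of experiments 1, 2 and 3, 11.05, 11.02 and 10.88 with GANP siRNA and 9.57, 9.37 and 9.30 with NXF1 siRNA. The 3 groups did not overlap. The order GANP siRNA, control siRNA, NXF1 siRNA held with means of 10.98 ± 0.09, 10.33 ± 0.12 and 9.41 ± 0.14 (SD, n = 3). On the deposited linear scale the mean signals were 2038, 1299 and 697. Within experiments 1, 2 and 3 the difference between GANP and control siRNA was 0.59, 0.72 and 0.66, and that between NXF1 and control siRNA was -0.88, -0.94 and -0.91. The mean differences were 0.66 (1.58-fold higher) with GANP siRNA and -0.91 (1.88-fold lower) with NXF1 siRNA, each with SE 0.10. Directly compared, ACTA2 was 2.96-fold higher with GANP than with NXF1 siRNA (log2 difference 1.57). These contrasts chose the gene and carry no p-value, and both comparisons with control siRNA share the control arrays.

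The genes whose signals over the 9 arrays were most like those of ACTA2, by Pearson correlation among 13117 other genes, were SHD (r = 0.991), FGGY (0.991), RBL2 (0.988), CNFN (0.986) and ALDH3B1 (0.982). RBL2 encodes a pocket protein related to the retinoblastoma protein, FGGY a carbohydrate kinase and ALDH3B1 an aldehyde dehydrogenase. Their mean differences ran from 0.30 in RBL2 to 0.42 in SHD with GANP siRNA and from -0.37 in RBL2 to -0.88 in CNFN with NXF1 siRNA, which in each case was smaller than in ACTA2. None of the 7 other actin and contractile genes compared was among them, and ACTG2 and CNN1 were too dim to be compared. Over the same arrays the correlation with ACTA2 was 0.63 for TAGLN2, -0.14 for ACTB, -0.36 for MYL9, -0.42 for SRF, -0.53 for ACTG1, -0.55 for CNN2 and -0.57 for TAGLN. With TAGLN the correlation was 0.84 for MYL9, 0.79 for ACTG1, 0.77 for CNN2, 0.75 for SRF, 0.28 for ACTB and -0.59 for TAGLN2. These coefficients describe 9 arrays that fall into 3 siRNA groups, and they carry no test.

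**Figure D2:**
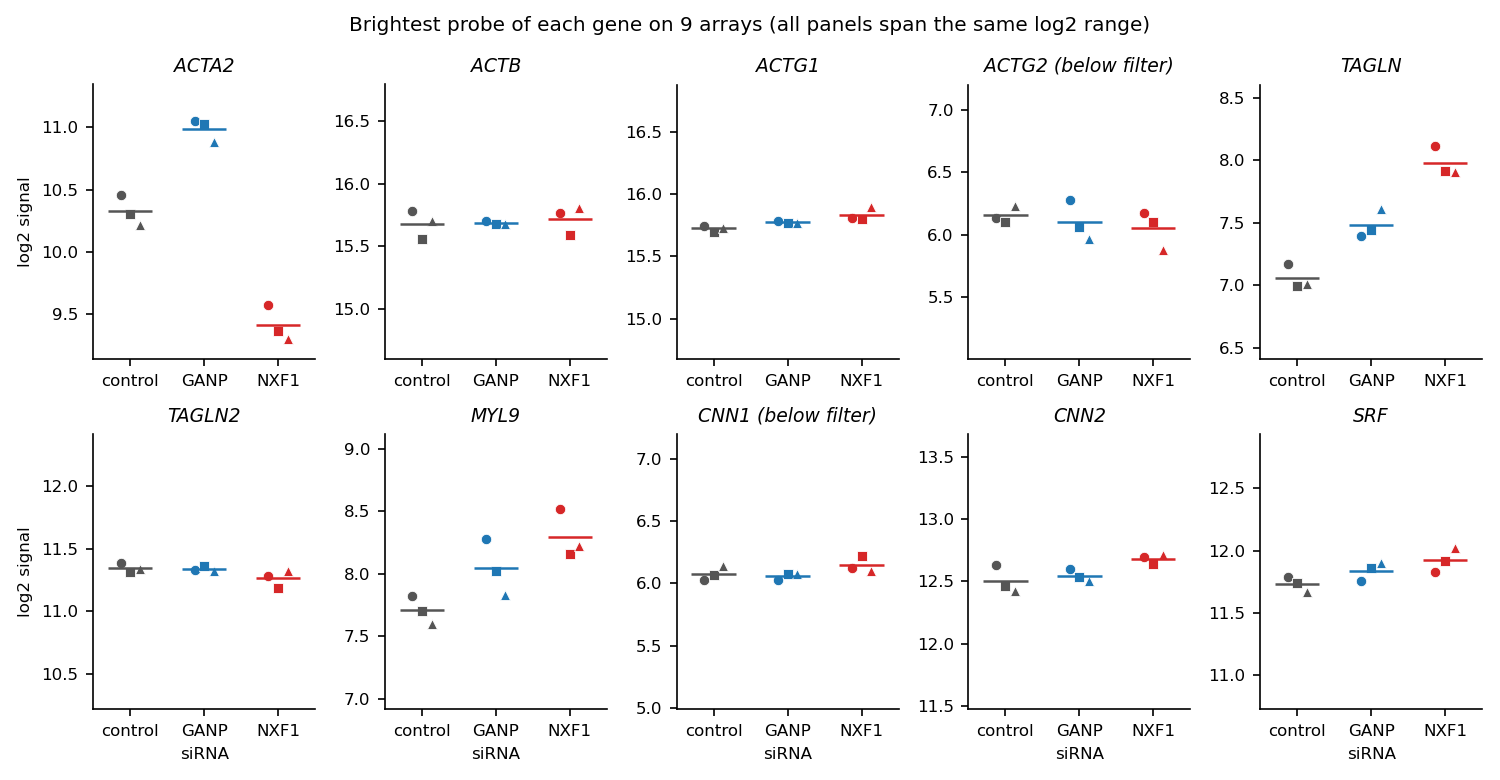
Log2 signal of the brightest probe of each of the 10 genes on the 9 arrays, by siRNA on the x axis, where a circle, square and triangle are experiments 1, 2 and 3 and bars are group means. ACTA2 is high with GANP siRNA and low with NXF1 siRNA, TAGLN and MYL9 are highest with NXF1 siRNA, and the remaining genes differ little; all panels span the same log2 range.

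Of the 10 genes, 8 passed the filter on dim probes and were tested, and 7 of these are not ACTA2. TAGLN was the 1 of 7 called higher with GANP siRNA, beside 6.28% of all genes tested, and 0 of 7 were called lower, beside 5.90%. With NXF1 siRNA 2 of 7, TAGLN and MYL9, were called higher beside 11.6% of all genes, and 0 of 7 lower beside 14.0%. GANP against NXF1 siRNA gave 0 of 7 higher beside 11.3% and 1 of 7, TAGLN, lower beside 8.29%. At an unadjusted p under 0.05 in limma, GANP siRNA gave 2 higher and 0 lower, and NXF1 siRNA 4 higher and 0 lower. The direct comparison gave 0 higher and 1 lower. Of all 13118 genes tested, 3414, 4885 and 4266 passed that unadjusted p in these comparisons, in either direction. The median difference of the 7 genes was 0.05 with GANP siRNA and 0.18 with NXF1 siRNA, and over all genes the medians were within 0.01 of 0.

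TAGLN rose after both depletions, more after NXF1 siRNA. Its brightest probe read 7.17, 7.00 and 7.01 with control siRNA, 7.40, 7.45 and 7.61 with GANP siRNA and 8.11, 7.92 and 7.90 with NXF1 siRNA in experiments 1, 2 and 3. No array of one group overlapped another group, and the direction with NXF1 siRNA was opposite to that of ACTA2. NXF1 siRNA gave 0.92 (1.89-fold, SE 0.09, adjusted p = 2.58e-05) and GANP siRNA 0.42 (1.34-fold, SE 0.09, adjusted p = 0.0101). The direct difference between GANP and NXF1 siRNA was -0.49 (SE 0.09, adjusted p = 0.00261). The call with GANP siRNA was lost without the control array of experiment 2 (0.39, adjusted p = 0.0503) and when the probes of a gene were averaged (0.27, adjusted p = 0.0698).

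The probes of TAGLN did not read alike. A second probe, annotated to the same transcript as the first, read 6.78, 6.57 and 6.63 with control siRNA, 6.67, 6.74 and 6.92 with GANP siRNA and 7.28, 7.09 and 7.16 with NXF1 siRNA. On this probe the NXF1 arrays lay above the control arrays (0.52, adjusted p = 0.00177 over all probes), whereas the GANP arrays overlapped them (0.12, adjusted p = 0.56). The third probe, annotated to another transcript, lay below the filter at 5.95 to 6.22 on all arrays. Over all probes above the filter, 1 of the 14 that do not belong to ACTA2 was called higher with GANP siRNA and 3 with NXF1 siRNA, beside 4.16% and 9.18% of 24401 probes. None was called lower with GANP siRNA or with NXF1 siRNA (beside 3.91% and 10.3%), and in the direct comparison 2 were called lower, both of TAGLN, and 0 higher (beside 6.20% and 7.82%).

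**Figure D3:**
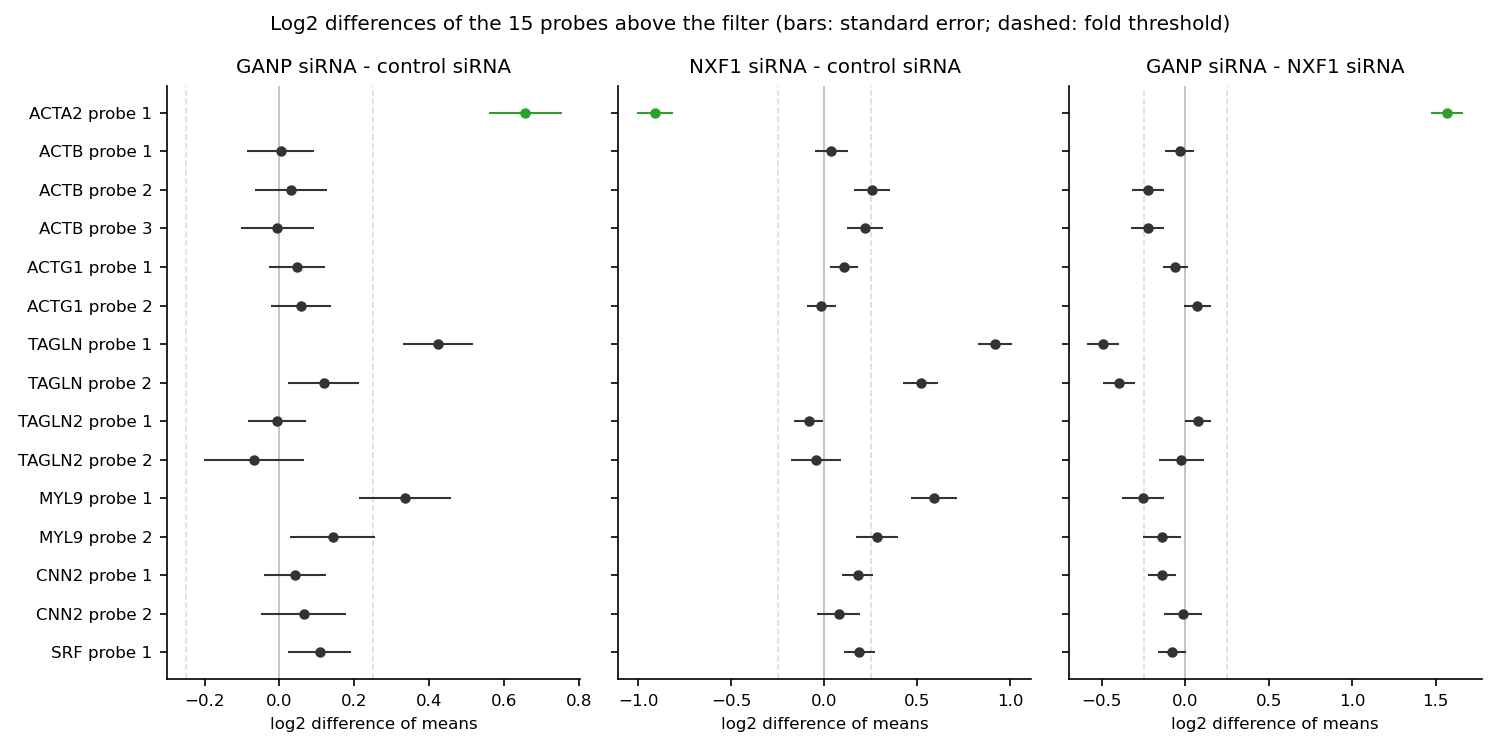
Log2 differences of group means for the 15 probes above the filter, with bars of 1 standard error and dashed lines at the thresholds of 0.25 and -0.25; the ACTA2 probe, drawn in green, is a description. With NXF1 siRNA the first TAGLN probe lies at 0.92 and the second at 0.52, while the ACTA2 probe lies at -0.91.

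MYL9, which encodes a regulatory light chain of myosin II, rose with NXF1 siRNA. Its brighter probe read 7.82, 7.71 and 7.60 with control siRNA, 8.28, 8.02 and 7.83 with GANP siRNA and 8.52, 8.16 and 8.22 with NXF1 siRNA. All arrays of either depletion lay above the control arrays, and the 2 depletions overlapped. NXF1 siRNA gave 0.59 (SE 0.12, adjusted p = 0.00366). GANP siRNA gave 0.34 (SE 0.12), which did not pass the test (adjusted p = 0.10) but did with the experiment number as a block (adjusted p = 0.00966). The direct difference of -0.25 was likewise not called (adjusted p = 0.180) but was called with the block (adjusted p = 0.026). The second MYL9 probe overlapped in all groups, with 0.28 for NXF1 siRNA (adjusted p = 0.103 over all probes) and 0.14 for GANP siRNA (adjusted p = 0.553).

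**Figure D4:**
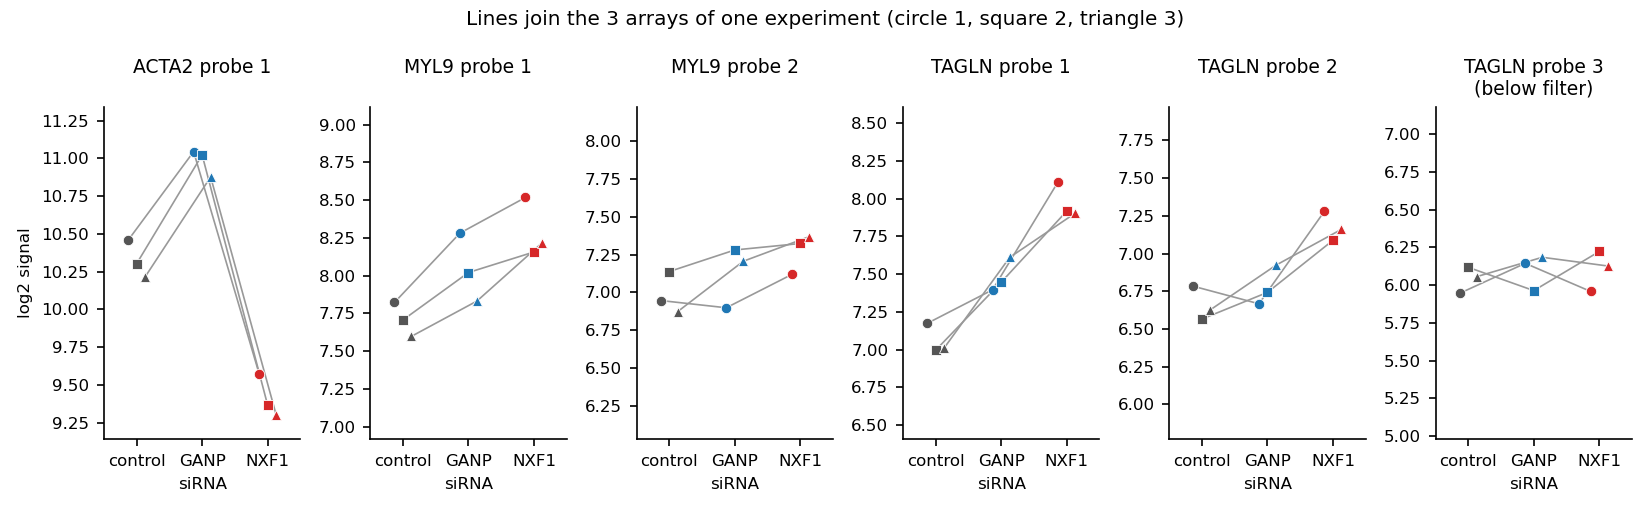
Log2 signal of each probe of ACTA2, MYL9 and TAGLN by siRNA, with lines joining the 3 arrays of 1 experiment (circle, square and triangle for experiments 1, 2 and 3). The ACTA2 lines rise to GANP siRNA and drop to NXF1 siRNA in every experiment, the first TAGLN lines rise at both steps, and the third TAGLN probe stays between 5.95 and 6.22.

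The cytoplasmic actins passed no test. The brightest ACTB probe read 15.78, 15.56 and 15.70 with control siRNA, 15.70, 15.67 and 15.67 with GANP siRNA and 15.76, 15.59 and 15.80 with NXF1 siRNA, so the groups overlapped. Its difference was 0.00 with GANP siRNA (95% interval -0.18 to 0.19, adjusted p = 0.989) and 0.04 with NXF1 siRNA (-0.15 to 0.22, adjusted p = 0.806). The other ACTB probes gave 0.26 and 0.22 with NXF1 siRNA (adjusted p = 0.0808 and 0.144 over all probes), and 0.03 and -0.01 with GANP siRNA. On the former of these the NXF1 arrays, at 15.26, 15.07 and 15.05, lay above the control arrays, at 15.02, 14.77 and 14.82. The probes of ACTB thus gave differences with NXF1 siRNA that ran from 0.04 to 0.26.

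For ACTG1 the brightest probe read 15.75, 15.70 and 15.73 with control siRNA, 15.78, 15.77 and 15.76 with GANP siRNA and 15.80, 15.80 and 15.90 with NXF1 siRNA. Both depletions lay above the control arrays by small amounts, 0.05 with GANP siRNA (95% interval -0.10 to 0.20, adjusted p = 0.734) and 0.11 with NXF1 siRNA (-0.05 to 0.26, adjusted p = 0.304). The second ACTG1 probe overlapped in all groups (0.06 and -0.02). The first probe reached 15.90 in the NXF1 array of experiment 3, the highest value that quantile normalization assigns on any array, and the first ACTB probe reached 15.80. Whether signal at the top of the range limits a difference was not tested.

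TAGLN2, CNN2 and SRF also passed no test. The brighter TAGLN2 probe lay between 11.18 and 11.38 on all 9 arrays, and its differences were -0.01 with GANP siRNA (95% interval -0.16 to 0.15, adjusted p = 0.972) and -0.08 with NXF1 siRNA (-0.24 to 0.07, adjusted p = 0.451). The brighter CNN2 probe read 12.63, 12.46 and 12.42 with control siRNA, 12.60, 12.53 and 12.50 with GANP siRNA and 12.70, 12.64 and 12.71 with NXF1 siRNA. All NXF1 arrays were above all control arrays in CNN2, by 0.18 (0.01 to 0.35), which did not hold after adjustment (adjusted p = 0.122). GANP siRNA gave 0.04 in CNN2 (-0.13 to 0.21, adjusted p = 0.807). The dimmer probes of TAGLN2 and CNN2 overlapped in every group, at 8.70 to 9.25 and 8.56 to 8.93.

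SRF itself read 11.79, 11.74 and 11.67 with control siRNA, 11.75, 11.86 and 11.90 with GANP siRNA and 11.83, 11.92 and 12.02 with NXF1 siRNA. The NXF1 arrays lay above the control arrays and the GANP arrays overlapped them. Its differences were 0.11 with GANP siRNA (95% interval -0.07 to 0.28, adjusted p = 0.455) and 0.19 with NXF1 siRNA (0.01 to 0.36, adjusted p = 0.107).

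ACTG2 and CNN1, the actin and the calponin typical of smooth muscle, had 1 probe each, and both lay below the filter at a log2 signal of 6.35. ACTG2 read 6.13, 6.10 and 6.23 with control siRNA, 6.28, 6.06 and 5.97 with GANP siRNA and 6.17, 6.10 and 5.88 with NXF1 siRNA. CNN1 lay between 6.02 and 6.22 on all arrays. In both genes the groups overlapped, and no difference was detectable at these signals.

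The wider pathway was described with 14 lists of 145 genes, of which 136 had a probe and 115 were tested. Some genes stand in more than 1 list. The counts stand beside the shares over all genes tested, 6.28% higher and 5.90% lower with GANP siRNA and 11.6% higher and 14.0% lower with NXF1 siRNA, and nothing particular to a list is read from them. Among 7 tested SRF cofactors none was called with GANP siRNA (0 higher and 1 lower at an unadjusted p under 0.05 in limma), and 3 rose with NXF1 siRNA. These were the ternary complex factors ELK4 (0.45, SE 0.10, adjusted p = 0.00416), ELK1 (0.33, SE 0.07, adjusted p = 0.00539) and ELK3 (0.33, SE 0.09, adjusted p = 0.0202). The ELK4 difference was 1.43 without control replicate 3, where another ELK4 probe became the brightest. The call of ELK3 was lost without NXF1 replicate 1, NXF1 replicate 2 or control replicate 3 (adjusted p up to 0.0891). The median of the cofactors was 0.06 with GANP siRNA and 0.15 with NXF1 siRNA.

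Of 16 tested MRTF-SRF target genes, 2 rose (12.5%, beside 6.28% of all genes) and 0 fell (beside 5.90%) with GANP siRNA, and 4 rose (25%, beside 11.6%) and 0 fell (beside 14.0%) with NXF1 siRNA. At an unadjusted p under 0.05 in limma, 0 were lower with GANP siRNA and 1 with NXF1 siRNA. TUFT1, which encodes tuftelin, read 9.07, 9.08 and 9.15 with control siRNA, 9.68, 9.79 and 9.84 with GANP siRNA and 9.96, 10.34 and 10.28 with NXF1 siRNA. The 3 groups did not overlap, and TUFT1 rose by 0.67 with GANP siRNA (SE 0.10, adjusted p = 0.0012) and by 1.09 with NXF1 siRNA (SE 0.10, adjusted p = 1.54e-05). CCN2, a secreted matrix-associated protein, read 7.55, 7.23 and 7.20 with control siRNA, 7.50, 7.57 and 7.87 with GANP siRNA and 8.08, 8.46 and 8.61 with NXF1 siRNA. It rose by 1.05 with NXF1 siRNA (SE 0.14, adjusted p = 0.000208), and its GANP and control arrays overlapped. The other calls were ACTN1 (alpha-actinin, a filament crosslinker) with GANP siRNA, at 0.43, and ZYX and FHL2, which act at focal adhesions and stress fibres, with NXF1 siRNA, at 0.39 and 0.38. Medians were 0.11 with GANP siRNA and 0.17 with NXF1 siRNA.

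Among 7 tested immediate early targets of SRF and the ternary complex factors, 1 rose (14.3%) and 2 fell (28.6%) after either siRNA. Over all genes 6.28% were called higher and 5.90% lower with GANP siRNA, and 11.6% and 14.0% with NXF1 siRNA. FOS, a subunit of the AP-1 transcription factor, read 9.997, 9.48 and 9.12 with control siRNA, 8.61, 8.46 and 8.43 with GANP siRNA and 8.65, 9.08 and 8.87 with NXF1 siRNA. Both depletions lay below the control arrays, whose own values spread widely. FOS fell by 1.03 with GANP siRNA (SE 0.18, adjusted p = 0.0029) and by 0.67 with NXF1 siRNA (SE 0.18, adjusted p = 0.0138). The latter was not called without NXF1 replicate 1 (adjusted p = 0.0506) and measured -0.43 without control replicate 1. EGR1, a zinc finger transcription factor, read 12.17, 12.01 and 11.82 with control siRNA, 11.19, 11.22 and 11.16 with GANP siRNA and 11.54, 11.43 and 11.66 with NXF1 siRNA. It fell by 0.81 with GANP siRNA (SE 0.10, adjusted p = 0.000307) and by 0.46 with NXF1 siRNA (SE 0.10, adjusted p = 0.00343). MCL1, a survival factor of the BCL2 family, rose by 0.29 and 0.68, but neither call held when its probes were averaged (adjusted p = 0.907 and 0.12). With GANP siRNA the MCL1 call was also lost in 5 fits that left out 1 array.

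The list of smooth muscle contraction leaves out the 10 genes and shares CALD1, TPM1 and TPM2 with the MRTF-SRF targets. Of its 9 tested genes, 1 was called higher with each siRNA (11.1%). Over all genes the shares were 6.28% with GANP siRNA and 11.6% with NXF1 siRNA. The called gene was PDLIM3, a Z-disc and actin-associated LIM protein. It rose by 0.38 with GANP siRNA (adjusted p = 0.0409) and by 0.56 with NXF1 siRNA (adjusted p = 0.00248). The GANP call of PDLIM3 was lost in 6 of the 9 fits that left out 1 array (adjusted p up to 0.143). Of 3 tropomyosins, which run along the actin filament, none was called with either siRNA, and at an unadjusted p under 0.05 in limma the counts were also 0. A list of CNN3, TAGLN3 and the actins ACTA1, ACTC1 and ACTBL2 had 2 of 5 genes tested, CNN3 and ACTA1. Neither was called or passed that unadjusted p. ACTA1 had a mean log2 signal of 6.43, near the filter of 6.35.

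Nonmuscle myosin II and its regulators had 3 of 16 genes called higher (18.8%, beside 6.28% of all genes) and 2 lower (12.5%, beside 5.90%) with GANP siRNA. NXF1 siRNA gave 4 higher (25%, beside 11.6%) and 2 lower (12.5%, beside 14.0%). PPP1CB, the catalytic subunit of myosin phosphatase, read 10.72, 10.98 and 10.82 with control siRNA, 10.05, 10.41 and 10.09 with GANP siRNA and 9.82, 9.97 and 9.76 with NXF1 siRNA. It fell by 0.66 with GANP siRNA (SE 0.11, adjusted p = 0.00215) and by 0.99 with NXF1 siRNA (SE 0.11, adjusted p = 4.49e-05), and both depletions lay below the control arrays. With averaged probes these differences were -0.33 and -0.52, still called. The heavy chain MYH14 fell by 0.36 with either siRNA, with GANP siRNA at adjusted p = 0.0539 without GANP replicate 3. Of the light chains, MYL12A rose by 0.47 with GANP siRNA (adjusted p = 0.00189) and by 0.28 with NXF1 siRNA (adjusted p = 0.015), and MYL6 by 0.36 and 0.38. The MYL6 calls were lost in 5 and 2 fits that left out 1 array. RHOC, a small GTPase that activates ROCK kinases, rose by 0.42 with NXF1 siRNA (adjusted p = 0.00479), and PPP1R12A by 0.33 (adjusted p = 0.0445). Medians of the list were 0.19 with GANP siRNA and 0.15 with NXF1 siRNA, and leaving out 1 array gave 1 to 4 genes higher and 1 to 3 lower with GANP siRNA, and 2 to 4 higher and 2 lower with NXF1 siRNA. Over all alternatives the number called higher was 1 to 6 with GANP siRNA and 2 to 6 with NXF1 siRNA.

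Nucleation starts new actin filaments, and severing proteins help to recycle them to monomers. Of 14 tested genes of monomer binding, severing and their regulation, 3 rose with GANP siRNA (21.4%, beside 6.28% of all genes). The 3 were the severing protein GSN (0.41), the monomer-binding CAP2 (0.38) and the cofilin phosphatase SSH3 (0.38). With GANP siRNA 0 fell (beside 5.90%), with 1 lower at an unadjusted p under 0.05 in limma. NXF1 siRNA gave 1 higher (7.14%, beside 11.6%), the cofilin kinase LIMK2 (0.42). It gave 2 lower (14.3%, beside 14.0%), destrin (DSTN, -0.33) and profilin 2 (PFN2, -0.29). Leaving out 1 array gave 1 to 3 genes higher with GANP siRNA, and 0 to 2 higher and 0 to 2 lower with NXF1 siRNA. Of 14 tested nucleation genes none was called with GANP siRNA (2 higher at an unadjusted p under 0.05 in limma). With NXF1 siRNA 3 rose (21.4%, beside 11.6% of all genes), the Arp2/3 subunits ARPC5L (0.32) and ARPC2 (0.26) and the formin DIAPH1 (0.31). This count was 1 to 3 when 1 array was left out. Averaging the probes of a gene ended the calls of DSTN and ARPC2. With NXF1 siRNA the PFN2 call was lost under 6 of 17 alternatives (adjusted p up to 0.164). The calls of LIMK2 (0.14), DIAPH1 (0.0884) and ARPC2 (0.113) were each lost under 4, and that of DSTN under 2 (0.705). With GANP siRNA the SSH3 call was lost under 3 (0.0913) and the GSN call under 1 (0.051).

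Of 20 genes for capping, crosslinking and adhesion, 3 rose (15%, beside 6.28% of all genes) and 1 fell (5%, beside 5.90%) with GANP siRNA. With NXF1 siRNA 5 rose (25%, beside 11.6%) and 2 fell (10%, beside 14.0%). Leaving out 1 array gave 2 to 3 higher and 0 to 1 lower with GANP siRNA, and 3 to 6 higher and 1 to 3 lower with NXF1 siRNA. TES, a focal adhesion LIM protein, rose by 0.42 with GANP siRNA (adjusted p = 0.00568) and by 0.57 with NXF1 siRNA (adjusted p = 0.000275), or by 0.30 with averaged probes in the latter case. ENAH, which promotes filament elongation, fell by 0.40 (adjusted p = 0.0462) and 0.72 (adjusted p = 0.000787), and talin (TLN1) by 0.37 with NXF1 siRNA (adjusted p = 0.012). The capping subunit CAPZB rose by 0.33 with GANP siRNA (adjusted p = 0.0244) and by 0.37 with NXF1 siRNA (adjusted p = 0.00597). Calls lost in fits without 1 array were those of CAPZB (5 fits) and ENAH (6 fits) with GANP siRNA and of TLN1 with NXF1 siRNA (adjusted p = 0.0568 without control replicate 3), and averaging probes ended those of TES and ENAH with GANP siRNA. Of 8 subunits of the chaperonin that folds actin, CCT4 fell with GANP siRNA (-0.32, adjusted p = 0.0192), which 4 fits without 1 array did not call, and none was called with NXF1 siRNA or at an unadjusted p under 0.05 in limma.

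**Figure D5:**
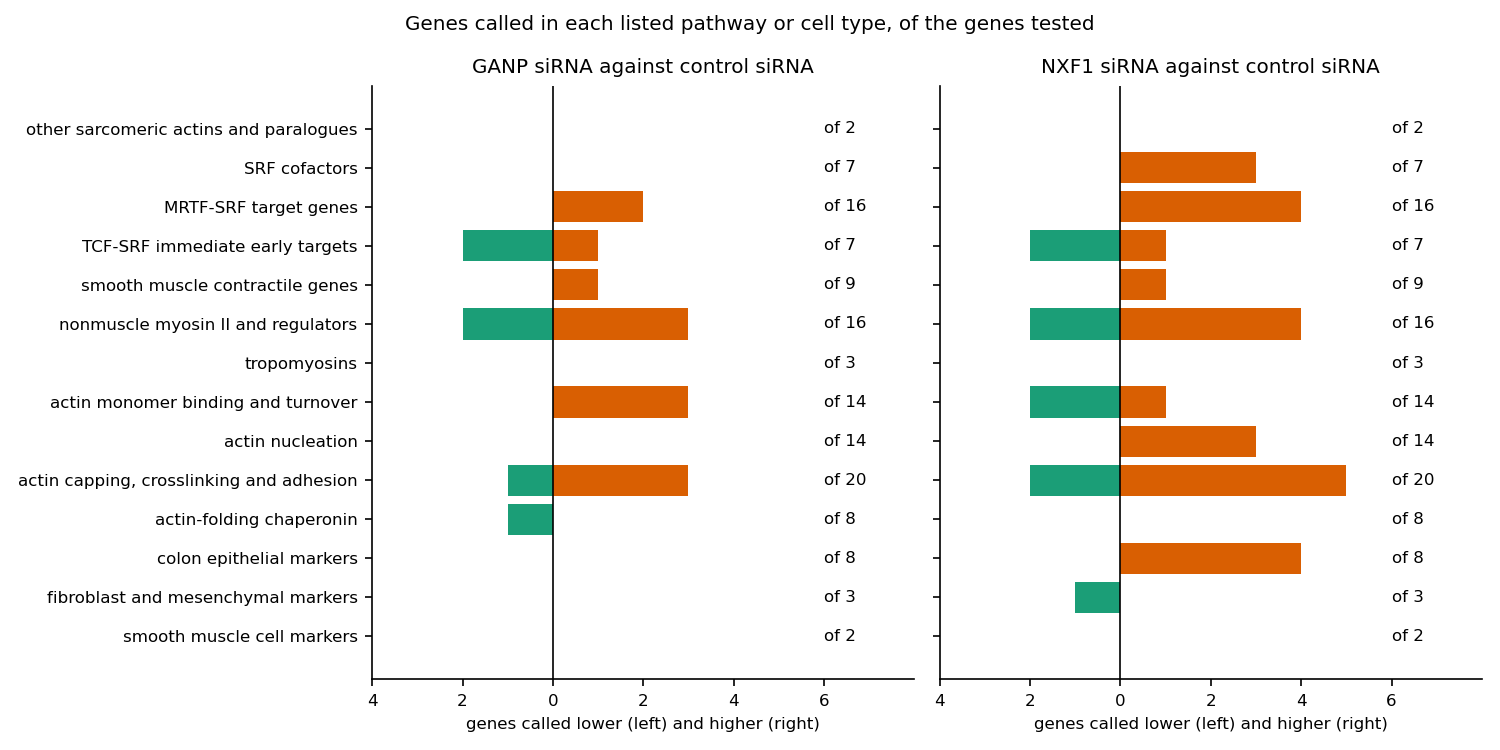
Number of genes called lower (left of 0) and higher (right of 0) in each of the 14 lists for GANP and NXF1 siRNA against control siRNA, with the number tested at the right. The TCF-SRF immediate early targets have 2 genes lower with either siRNA, and the MRTF-SRF targets have 2 and 4 genes higher and none lower.

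Markers of the cell line and of other cell types were read beside these results. Epithelial markers were present, with 8 of 10 above the filter. The sums of linear signal given here include the markers below the filter. For the epithelial markers they ranged over 62873 to 66383 in control arrays, 64016 to 68391 with GANP siRNA and 78018 to 78457 with NXF1 siRNA. With NXF1 siRNA 4 of the 8 rose (50%, beside 11.6% of all genes) and 0 fell (beside 14.0%). The 4 were CDH1 (0.85), EPCAM (0.65), KRT8 (0.35) and KRT18 (0.30), in the same arrays in which TAGLN and MYL9 rose. With averaged probes EPCAM gave 0.33 and KRT18 0.56. The other 4 were not called, and among them KRT20 gave -0.23 (unadjusted p = 0.0219, adjusted p = 0.0719) and CLDN4 -0.03. The KRT8 call was lost in 3 fits without 1 array (adjusted p up to 0.0882). Of 11 fibroblast markers 3 were above the filter, and the sums over all 11 were 1314 to 1375, 1285 to 1406 and 1088 to 1157. VIM, the intermediate filament vimentin, was the 1 of these 3 called, and it fell by 0.69 with NXF1 siRNA (SE 0.11, adjusted p = 0.000639). No fibroblast marker other than VIM had a group mean over 6.76, beside a filter of 6.35, so the sum says little beyond VIM. COL1A2, COL3A1, PDGFRB, THY1 and FAP were among the 8 below the filter. Of 5 smooth muscle cell markers 2 were above the filter and none was called, and MYH11, DES and ITGA8 were below it. The sums over all 5 were 374 to 413, 413 to 429 and 378 to 422. Group means of the 5 ran from 5.77 in ITGA8 to 6.80 in SYNM, near or below the filter of 6.35. These sums are therefore not read as marker levels. None of the 8 epithelial markers was called with GANP siRNA, where ACTA2 rose (beside 6.28% of all genes higher and 5.90% lower). At an unadjusted p under 0.05 in limma 2 of them were higher and 0 lower. CDH1 averaged 8.49 with GANP and 7.96 with control siRNA, and VIM 9.11 and 9.15. With NXF1 siRNA, where ACTA2 fell, TAGLN (0.92) and MYL9 (0.59) rose. In the same arrays 4 of 8 epithelial markers rose (beside 11.6% of all genes) and vimentin fell. The part of these markers in the ACTA2 and TAGLN differences was not tested.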

How the data were processed

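Cytoplasmic RNA of HCT116 cells was measured on 9 arrays, grouped by the siRNA and experiment number in their labels. The authors amplified and hybridised the RNA, imported the scans into BeadStudio and applied quantile normalization, followed by lumi (its version is not given in the sources used here) and limma. The deposited signal intensity values are linear, with per-array medians of 95.24 to 95.32. Another 18 array columns, of signals without normalization and detection p-values, were left out because no label pairs them with samples. Here the values were background corrected (normexp, offset 50), quantile normalized again and log2 transformed with limma 3.58.1 in R 4.3.3. Probes whose mean exceeded the all-probe median of 6.35 were retained, 24401 in all, and the brightest per gene gave 13118 genes. In the platform annotation 27578 probes had 1 symbol, 13 several and 21212 none. The precision is limited by 3 arrays per group.

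All 3 groups were fitted together (lmFit, eBayes, 6 residual degrees of freedom), with Benjamini-Hochberg adjustment, and a further fit took all retained probes. The gene fit was tested on simulated data for GANP against control siRNA only, with noise drawn independently for each array. Alternatives were a replicate block, no background correction, the deposited values, median scaling, no filter, averaged probes, an intensity trend, no fold threshold, separate fits and leaving out each array. The experiment numbers mark independent depletions and pair the arrays: deviations from group means correlated at 0.107 to 0.461 in 9 pairs of the same number and at -0.402 to 0.120 in 18 other pairs. No arrays were identical. The text names all 10 genes with each probe, up to 4 called genes per list and comparison with the largest difference, the 5 genes most correlated with ACTA2, and MCM3AP. Also given are the calls of MYL12A, PPP1R12A and CAPZB with NXF1 siRNA, whose dependence on the processing was not examined. Some listed genes that were not called are named too. The 10 genes and the lists were chosen with earlier results of these data known.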

Additional observations from a re-analysis of the deposited data

Results flagged for a closer look

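The genes below differed between the 2 depletions, by the direct comparison of GANP with NXF1 siRNA (limma, adjusted over 13118 genes), where positive values mean more signal after GANP depletion. Among the contractile genes TAGLN differed by -0.49 (adjusted p = 0.00261). ACTA2 moved in opposite directions in all arrays, by 1.57 between the depletions, and this difference was not tested because it chose the gene.

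Of the SRF cofactors, ELK3 differed by -0.63 (adjusted p = 0.000692) and ELK4 by -0.51 (0.00325). Of the SRF targets, CCN2 differed by -0.74 (0.00362), TUFT1 by -0.43 (0.00995), FHL2 by -0.39 (0.00533), MCL1 by -0.39 (0.00367) and EGR1 by -0.35 (0.0217), while ACTN1 was higher with GANP siRNA by 0.30 (0.0177). FOS, whose difference from control was called after both siRNAs, was not called in this comparison. The ACTN1 call was lost in 2 fits that left out 1 array (adjusted p up to 0.0756), the EGR1 call in 4 (up to 0.0822) and the MCL1 call with averaged probes (0.19), and ELK4 measured -0.29 with averaged probes.

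Of the myosin genes, the heavy chain MYH10 differed by 0.47 (0.0137) and PPP1CB by 0.33 (0.0458). The PPP1CB call was lost under 10 of 17 alternatives, with 0.18 for averaged probes and adjusted p up to 0.191, and the MYH10 call without GANP replicate 3 (0.053). Genes of filament turnover differed by 0.42 in GSN (0.00594), 0.40 in CAP2 (0.00308), 0.38 in SSH3 (0.0157) and -0.52 in SSH1 (0.0278). The formins differed in opposite directions, DIAPH1 by -0.41 (0.00785) and DIAPH2 by 0.28 (0.0204), and the Arp2/3 subunit ARPC5L by -0.27 (0.024). At adhesions and filament ends, PXN differed by -0.50 (0.0032), TLN1 by 0.47 (0.0043), CAPZA1 by -0.32 (0.0368) and EVL by 0.31 (0.0298). Fits that left out 1 array lost the call of CAPZA1 in 5 cases (adjusted p up to 0.125), of EVL in 5 (0.094), of DIAPH2 in 4 (0.0708), and of SSH1 (0.117), SSH3 (0.069) and ARPC5L (0.0909) in 3 each. SSH1 measured -0.32 without NXF1 replicate 1.

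Of the cell type markers, VIM differed by 0.66 (0.00147), EPCAM by -0.54 (0.00651) and KRT18 by -0.38 (0.00312), and EPCAM gave -0.31 with averaged probes.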

How the results depend on the processing

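Under 17 alternatives the ACTA2 difference ranged from 0.60 to 0.72 with GANP siRNA, from -0.99 to -0.84 with NXF1 siRNA and from 1.51 to 1.65 between them. TAGLN stayed called with NXF1 siRNA (0.72 to 0.97, adjusted p 1.22e-05 to 0.000338) and in the direct comparison (-0.56 to -0.43, 0.00191 to 0.0147), and MYL9 with NXF1 siRNA (0.44 to 0.66, 0.000204 to 0.018). The number of genes other than ACTA2 called higher with GANP siRNA was 2 with the replicate block, which added MYL9 (0.34, adjusted p = 0.00966), 0 with averaged probes, and 0 to 1 when 1 array was left out (0 without control replicate 2). The replicate block also raised those called lower with GANP than with NXF1 siRNA to 2, by MYL9 (-0.25, adjusted p = 0.026), and changed no other call among the 10 genes. Called values did not reverse. Leaving out 1 array gave 488 to 903 genes higher and 392 to 864 lower with GANP siRNA, 1185 to 1559 and 1420 to 1868 with NXF1 siRNA, and 1060 to 1495 higher and 674 to 1128 lower in the direct comparison. The 488 and 392 arose without control replicate 2 and the 674 without GANP replicate 2. Of 70 calls of listed genes named by largest difference, 38 were kept under all 17 alternatives and 32 were lost under at least 1. The causes were not tested. Probes near the filter (ACTG2, CNN1) allow no statement on change.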
